A study of Mus musculus with 2 samples.

Results

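The 10 core circadian clock genes Clock, Arntl, Per1, Per2, Per3, Cry1, Cry2, Nr1d1, Nr1d2 and Dbp were followed in total RNA of the mouse adrenal gland. They were matched by gene symbol in the transcript tables, and their gene identifiers linked them to the gene tables, which hold 55536 GENCODE genes. All 10 genes were found, and all 10 had enough counts to enter the comparison of the libraries. The RNA came from female mice of the F1 hybrid strain B6CASTF1/J at 14 days of age, with no treatment named. There was 1 group of 2 libraries, called replicate 2 and replicate 1 after their labels, so the comparison available is replicate 2 over replicate 1. The sample label of replicate 1 names a pool of 3 females and that of replicate 2 a single female, but both carry 1 donor identifier and the library description of the pool. The labels thus leave it unsettled whether the libraries come from different animals, and the SDs here measure only the spread between these samples, which may be technical. The labels used here give no hour of collection, so no clock phase was assigned to either library.

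The mammalian clock is a transcriptional feedback loop that runs in nearly every cell. The proteins CLOCK and ARNTL (also called BMAL1) pair and activate genes through the DNA element known as the E-box. Among those genes are the Per and Cry genes, whose proteins enter the nucleus and inhibit CLOCK and ARNTL, and Nr1d1 and Nr1d2, which encode the nuclear receptors REV-ERB alpha and beta and repress Arntl through ROR elements. Dbp encodes an activator of a further set of genes through D-box elements, and the nuclear receptors of the ROR family act on the same elements as the REV-ERBs in the opposite direction. In tissues sampled around the day, Arntl RNA usually peaks at the opposite time to Nr1d1, Dbp and the Per genes. In the adrenal gland the clock is known for its part in the daily rhythm of glucocorticoid release, and Per1 is also known as a direct target of glucocorticoid and cyclic AMP signalling.

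The promoters of the genes were searched for the elements through which the loop closes. RefSeq promoter windows, from 250 bases before to 50 bases after an annotated start, were at hand for 9 of the 10 genes, in 13 windows, but not for Per2. The windows are on GRCm38.p6, the assembly that mm10 represents, and are written 5′ to 3′ on the gene's own strand. Capitals mark the motifs searched on both strands, which were the E-box CACGTG, the E′-box CACGTT, the D-box TTATGTAA or TTACGTAA, the ROR core motif AGGTCA and the cyclic AMP element TGACGTCA. A motif on the other strand appears as its reverse complement, for example AACGTG for the E′-box and TGACCT for the ROR core motif. A match is a description of the letters and says nothing about binding in these glands.

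The first Per1 window, chr11:69098699-69098998 on the plus strand, and the second, chr11:69099902-69100201 on the plus strand, are shown together. The share of Per1 counts assigned to transcripts that begin in them differed between the libraries.
Per1 first window: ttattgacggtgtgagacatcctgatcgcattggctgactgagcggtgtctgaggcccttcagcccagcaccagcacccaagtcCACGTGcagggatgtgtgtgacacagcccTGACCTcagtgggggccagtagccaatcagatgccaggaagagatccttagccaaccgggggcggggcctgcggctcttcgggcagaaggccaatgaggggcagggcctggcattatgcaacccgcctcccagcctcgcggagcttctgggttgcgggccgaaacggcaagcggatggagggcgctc
Per1 second window: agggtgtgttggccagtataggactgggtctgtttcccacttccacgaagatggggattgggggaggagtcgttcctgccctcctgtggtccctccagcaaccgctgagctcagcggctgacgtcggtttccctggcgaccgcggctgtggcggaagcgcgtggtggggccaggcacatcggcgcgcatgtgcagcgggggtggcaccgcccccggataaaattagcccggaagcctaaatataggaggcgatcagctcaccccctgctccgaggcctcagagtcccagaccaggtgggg

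The window of Per3, chr4:151044616-151044915 on the minus strand, is shown as the member window with D-boxes. Those of Cry1, chr10:85185005-85185304 on the minus strand, and Nr1d1, chr11:98775328-98775627 on the minus strand, are shown for their E-box forms. The second Arntl window, chr7:113207261-113207560 on the plus strand, is shown for its ROR core motif.
Per3: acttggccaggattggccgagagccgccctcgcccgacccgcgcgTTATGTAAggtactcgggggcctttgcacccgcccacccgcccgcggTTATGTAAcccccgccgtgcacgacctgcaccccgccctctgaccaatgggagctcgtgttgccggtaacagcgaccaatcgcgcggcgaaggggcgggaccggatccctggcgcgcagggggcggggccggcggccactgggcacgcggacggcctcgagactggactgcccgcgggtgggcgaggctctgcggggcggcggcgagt
Cry1: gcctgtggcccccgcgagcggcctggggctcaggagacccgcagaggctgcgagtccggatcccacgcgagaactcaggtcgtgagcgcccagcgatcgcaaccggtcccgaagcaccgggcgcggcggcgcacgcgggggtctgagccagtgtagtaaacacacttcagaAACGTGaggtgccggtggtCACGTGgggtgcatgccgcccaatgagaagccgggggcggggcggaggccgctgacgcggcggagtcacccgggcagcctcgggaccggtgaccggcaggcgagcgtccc
Nr1d1: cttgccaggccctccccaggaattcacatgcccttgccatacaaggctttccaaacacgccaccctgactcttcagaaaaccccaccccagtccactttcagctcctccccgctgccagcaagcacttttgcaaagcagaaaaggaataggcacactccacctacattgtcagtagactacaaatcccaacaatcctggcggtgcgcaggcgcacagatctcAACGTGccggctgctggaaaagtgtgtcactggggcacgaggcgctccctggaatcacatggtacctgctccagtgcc
Arntl second window: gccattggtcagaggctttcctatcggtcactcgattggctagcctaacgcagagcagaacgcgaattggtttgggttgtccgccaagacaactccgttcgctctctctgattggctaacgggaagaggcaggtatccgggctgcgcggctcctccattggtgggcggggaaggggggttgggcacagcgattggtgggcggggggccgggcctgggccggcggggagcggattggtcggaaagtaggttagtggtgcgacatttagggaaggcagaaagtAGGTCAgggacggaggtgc

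An exact E-box lay in 2 of the 13 windows, against 7.15% of all 32851 windows. It was 166 bases before the start of the first Per1 window, which is not the most upstream Per1 start, and 60 bases before the Cry1 start. An E′-box lay in the windows of Cry1, Cry2 and Nr1d1, at 79, 166 and 28 bases before their starts, against 4.68% of all windows. Per3 held 2 D-boxes, at 205 and 158 bases before its start, an element found in 1.06% of all windows. The ROR core motif lay in windows of Per1, Clock, Arntl and Nr1d2, and 16.3% of all windows held one. The cyclic AMP element was in none of the 13 windows and in 1.79% of all. None of these motifs was in the second Per1 window or in the Dbp window, chr7:45704997-45705296 on the plus strand. The same held for the first and second Clock windows and the first Arntl window. None of the marked elements overlapped another. The wider form CANNTG, which includes the exact E-box, lay in 7 of the 13 windows and in 72.3% of all.

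The gene tables held 33735952 expected counts over GENCODE genes in replicate 2 and 37459633 in replicate 1. The glands of both libraries expressed the defining genes of adrenal cortex and medulla, but the libraries stood apart in the RNA of other tissues. The 7 adrenal cortex markers, among them Star and Cyp11a1, summed to 2512 TPM in replicate 2 and 5868 TPM in replicate 1, and the 6 chromaffin markers, among them Th and Pnmt, to 723 and 1575 TPM. The 8 liver markers, among them Alb, summed to 18820 TPM in replicate 2 and 325 TPM in replicate 1. The 7 skeletal muscle markers summed to 483 and 23.2 TPM, the 6 fat markers to 1524 and 1335 TPM, the 7 thymocyte markers to 0.88 and 34.4 TPM, and the 4 erythroid markers to 17.8 and 60.02 TPM. No marker of the 7 lists was at 0 in either library. With the scaling of counts described below, every tested marker was called in the direction of its list's sum. The exception was 1 thymocyte marker that was too low to test. In TPM, however, the fat markers Plin1 (168 and 172) and Lep (1.81 and 2.28) were lower in replicate 2, while the other fat markers were higher. The part of this difference in tissue in the clock gene values below was not tested, and in such bulk RNA fewer cells of a type and less RNA per cell cannot be told apart.

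All 10 clock genes were expressed at moderate levels, between 3.98 TPM (Per2, replicate 2) and 31.7 TPM (Per1, replicate 1). TPM is a transcript abundance corrected for length, which allows levels of different genes to be set side by side. Together the genes summed to 99.96 TPM in replicate 2 and 137 TPM in replicate 1. By mean TPM the order was Per1, Nr1d1, Dbp, Nr1d2, Clock, Cry2, Arntl, Per3, Per2 and Cry1. Among neighbours in this order, only Dbp and Nr1d2 had ranges that did not overlap between the libraries. In the gene table Per1 was first in both libraries, whereas the last place was taken by Per2 in replicate 2 and by Cry1 in replicate 1. In the second transcript table Dbp at 20.25 TPM and Nr1d1 at 19.05 TPM exceeded Per1 at 17.31 TPM in replicate 2. The levels also depend on what TPM is taken over. Mitochondrial RNA made up 37.3% of TPM in replicate 2 and 38.6% in replicate 1. Nuclear protein-coding genes made up only 27.9% and 29.05%, and the rest was other nuclear RNA. Over nuclear protein-coding genes alone, mean TPM was 86.2 for Per1, the highest, and 16.8 for Cry1, the lowest.

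**Figure D1:**
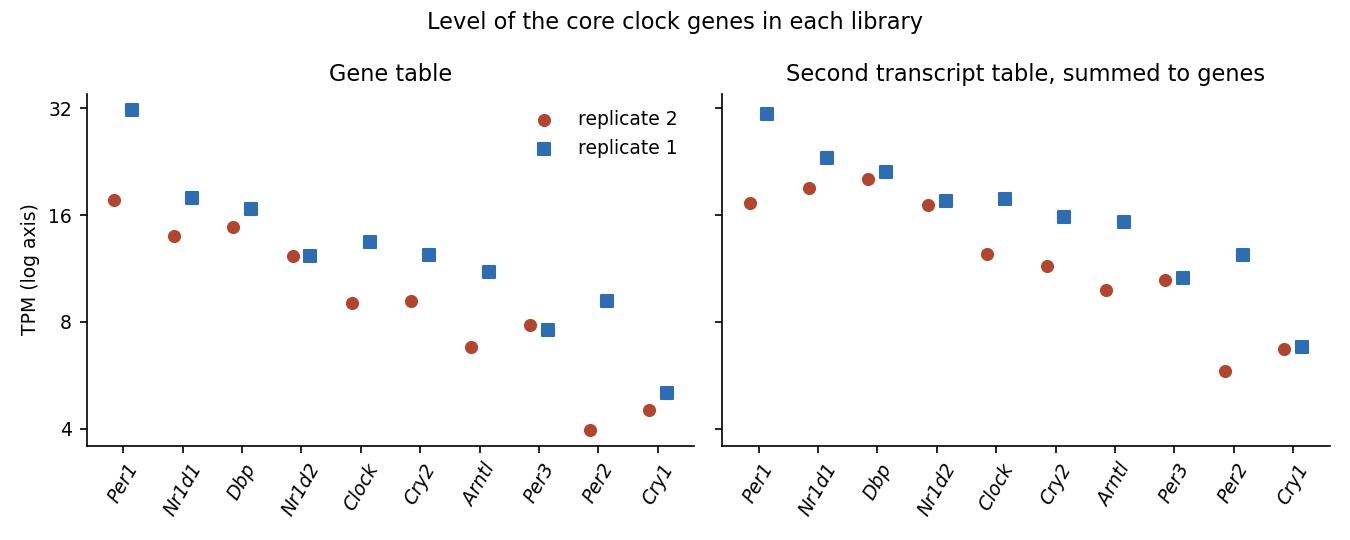
TPM of the 10 core clock genes (log axis) in replicate 2 (circles) and replicate 1 (squares), from the gene table on the left and from the second transcript table summed to genes on the right, in order of mean TPM of the gene table. Per1 is highest in both libraries of the gene table, Per2 shows the widest gap, and for Per3, as for Nr1d2, the points of the libraries nearly coincide.

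For the difference between the libraries, counts were scaled with TMM, which takes most genes to be alike in both, and an exact conditional binomial test was applied to each of 16155 genes. The test covers counting error in these 2 libraries only, and at this depth it calls much of the genome. At an adjusted p under 0.05, 53.2% of all genes tested were called, 28.9% higher and 24.3% lower in replicate 2, and with at least a 1.5-fold difference 20.8% were called, 13.8% higher and 7.00% lower. Of the 10 core clock genes, 3 were called higher, 4 lower and 3 neither, counts near that background for so few genes. At 1.5-fold none was called higher and 1, Per2, was called lower. The median log2 difference was 0.03 over the 10 genes and 0.00 over all genes tested, and the median absolute difference was 0.24 and 0.27. These calls depend on the scaling. With ERCC spike-in scaling the median of all genes tested moved to -0.28, and 1 core clock gene was called higher and 6 lower, against 15.7% and 52.8% of all genes. With total-count scaling that median was -0.34, and the calls were again 1 higher and 6 lower, against 14.0% and 58.3% of all genes.

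The activator arm was slightly lower in replicate 2 under TMM. Clock (ENSMUSG00000029238.11, mm10 chr5:76209868-76304792, minus strand) encodes one partner of the pair that activates the loop. It had 2060 counts in replicate 2 and 3205 in replicate 1, which were 9.02 and 13.5 TPM (mean 11.2 ± 3.14, SD, n = 2). Its log2 difference was -0.14, with a 95% interval of counting error of -0.22 to -0.06 and an adjusted p of 1.216e-03 in the exact binomial test. Arntl (ENSMUSG00000055116.8, mm10 chr7:113207465-113314126, plus strand), whose product pairs with CLOCK, had 608 counts in replicate 2 and 1005 in replicate 1, or 6.81 and 11.1 TPM (mean 8.95 ± 3.02, SD, n = 2). Its log2 difference was -0.23 (interval -0.38 to -0.08, adjusted p = 4.671e-03 in the exact test). Both were therefore called lower by small amounts, and both differences lay between the lower quartile, -0.24, and the upper quartile, 0.30, of all genes tested. Relative to each other Clock and Arntl did not move detectably: Arntl over Clock was 0.755 in replicate 2 and 0.823 in replicate 1 in TPM, and the log2 count ratio differed by -0.09 with an interval of -0.26 to 0.08 that held 0.

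The 3 Per genes, whose proteins form the inhibitory complex with the CRYs, did not move together. Per2 (ENSMUSG00000055866.9, mm10 chr1:91415982-91459324, minus strand) had 752 counts in replicate 2 and 1820 in replicate 1, or 3.98 and 9.17 TPM (mean 6.58 ± 3.67, SD, n = 2). It was 1.72-fold lower in replicate 2 (interval 1.58 to 1.87, log2 -0.78, adjusted p = 7.523e-37 in the exact test), and 4.80% of all genes tested had a lower log2 difference. Per1 (ENSMUSG00000020893.17, mm10 chr11:69095217-69109960, plus strand) had 1745 and 3449 counts, or 17.6 TPM in replicate 2 and 31.7 TPM in replicate 1 (mean 24.7 ± 9.98, SD, n = 2). It was 1.40-fold lower (interval 1.32 to 1.49, log2 -0.49, adjusted p = 1.354e-30 in the exact test), with 11.3% of all genes tested below it. Per3 (ENSMUSG00000028957.12, mm10 chr4:151003652-151044665, minus strand) had 1263 counts in replicate 2 and 1287 in replicate 1, or 7.83 and 7.60 TPM (mean 7.72 ± 0.163, SD, n = 2). On the TMM scale it was 1.38-fold higher (interval 1.278 to 1.495, log2 0.47, adjusted p = 2.638e-15 in the exact test), and 82.1% of all genes tested had a lower difference. Per1 and Per2 thus lay below the lower quartile of all genes and Per3 above the upper one, the only members outside the quartiles.

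The Cry genes encode the other component of the inhibitory complex. Cry1 (ENSMUSG00000020038.10, mm10 chr10:85131700-85185064, minus strand) had 421 counts in replicate 2 and 512 in replicate 1, or 4.51 and 5.06 TPM (mean 4.79 ± 0.389, SD, n = 2). Its log2 difference of 0.21 had an interval of 0.02 to 0.40, but it missed the threshold after adjustment (adjusted p = 0.0522 in the exact test). Cry2 (ENSMUSG00000068742.11, mm10 chr2:92403646-92434043, minus strand) had 971 and 1355 counts, or 9.16 TPM in replicate 2 and 12.4 TPM in replicate 1 (mean 10.8 ± 2.26, SD, n = 2). Its log2 difference was 0.01, and the interval of -0.11 to 0.13, which covers counting error only, held 0 (adjusted p = 0.8896 in the exact test). Cry1 over Cry2 was 0.492 in replicate 2 and 0.410 in replicate 1 in TPM, and the difference of the log2 count ratios, 0.20, had an interval of -0.03 to 0.42.

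The REV-ERB genes and Dbp, direct outputs of CLOCK and ARNTL, were level or slightly higher in replicate 2 under TMM. Nr1d1 (ENSMUSG00000020889.11, mm10 chr11:98767932-98775333, minus strand) had 1170 counts in replicate 2 and 1595 in replicate 1, or 14.0 and 17.9 TPM (mean 15.9 ± 2.78, SD, n = 2). Its log2 difference was 0.05 (interval -0.06 to 0.16, adjusted p = 0.51 in the exact test). Nr1d2 (ENSMUSG00000021775.11, mm10 chr14:18204054-18239127, minus strand) had 1452 and 1723 rounded counts, or 12.3 TPM in replicate 2 and 12.2 TPM in replicate 1, and a log2 difference of 0.25 (interval 0.15 to 0.35, adjusted p = 6.254e-06 in the exact test). Dbp (ENSMUSG00000059824.12, mm10 chr7:45705088-45710203, plus strand) had 727 and 830 counts, or 14.8 TPM in replicate 2 and 16.7 TPM in replicate 1 (mean 15.7 ± 1.35, SD, n = 2), and a log2 difference of 0.30 (interval 0.16 to 0.45, adjusted p = 1.287e-04 in the exact test). The directions of Nr1d2 and Dbp flip with the scaling: Nr1d2 was at -0.03 with spike-in and -0.10 with total-count scaling, Dbp was at 0.02 and -0.04, and neither gene was called. Cry1, Cry2 and Nr1d1, which were not called under TMM, were below 0 under both of these scalings, and Cry2 and Nr1d1 were then called lower. Per3 stayed above 0 at 0.19 and 0.12, and Clock, Arntl, Per1 and Per2 stayed below 0.

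Clock gene RNA was also set against the RNA of the steroid-producing cells, a scaling chosen after the values were seen. Scaled to the summed counts of the 7 adrenal cortex markers, all 10 genes had log2 differences above 0, with a median of 0.87, while the median of all genes tested was 0.84. On this scale 9 genes were called higher, against 86.7% of all genes tested, and 8 by at least 1.5-fold, against 74.5%. Per2 was the exception at 0.06, so that Per2 and the cortex markers differed between the libraries by nearly the same factor. Per1 was next at 0.35, and the other 8 genes lay between 0.61 and 1.30. Clock genes are expressed in the liver, muscle and fat as well, and the share of each gene's RNA that came from such tissue was not tested.

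**Figure D2:**
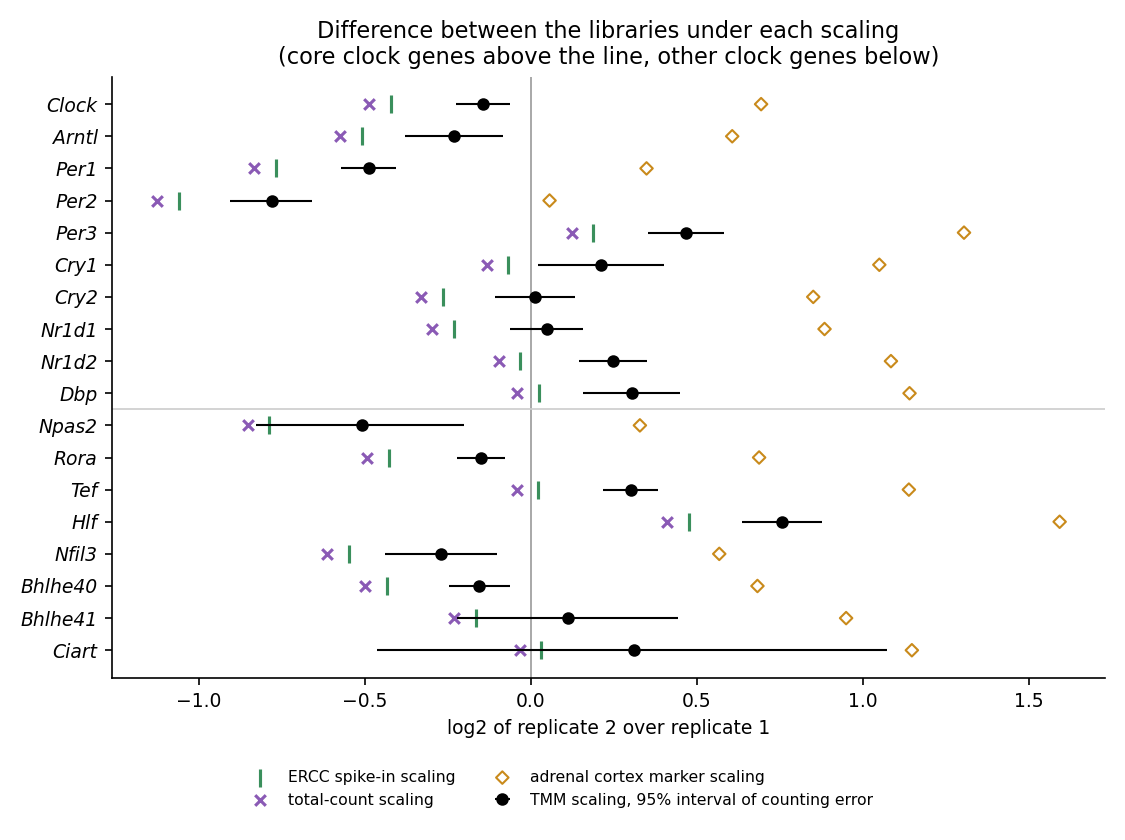
Log2 of replicate 2 over replicate 1 for the 10 core clock genes (above the line) and 8 other clock genes (below it) with TMM scaling and 95% intervals of counting error (black), and with ERCC spike-in (green bars), total-count (purple crosses) and adrenal cortex marker scaling (open diamonds). Each scaling shifts all genes by 1 amount, so the order of the genes stays while the zero line moves, and Per1 and Per2 are the lowest of the 10 core genes under every one.

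Ratios of genes within a library do not depend on the scaling, though the part of the difference in tissue in them was not tested. Clock and Arntl were each set against the 8 repressor and output genes. Of these 8 ratios, 2 were higher in replicate 2 and 6 were lower for Clock, and the same held for Arntl, with no 95% interval that held 0. Of all other genes tested, 13.3% had a Clock ratio that was higher in replicate 2 by this measure and 41.1% one that was lower, and for Arntl the shares were 7.82% and 45.9%. The sets of ratios share their 8 denominators, and Arntl over Clock did not differ detectably, so the Arntl ratios add little to those of Clock. The 2 higher ratios were those over Per1 and Per2 for both activators. Arntl over Per2 was 1.71 in replicate 2 and 1.21 in replicate 1 in TPM, and the log2 count ratio was higher by 0.55 (interval 0.36 to 0.74). Arntl over Per1 was 0.387 in replicate 2 and 0.349 in replicate 1, with a log2 count ratio higher by 0.26 (interval 0.09 to 0.43). Against the other outputs the activators were lower in replicate 2.

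Arntl over Dbp was 0.461 in replicate 2 and 0.664 in replicate 1 in TPM, and its log2 count ratio differed by -0.53 (interval -0.74 to -0.33). Arntl over Nr1d1 was 0.488 and 0.619, with a difference of -0.28 (interval -0.46 to -0.09). Arntl over Per3 was 0.870 in replicate 2 and 1.46 in replicate 1, with a difference of -0.70 (interval -0.88 to -0.51), the lowest of its 8. The Per genes were therefore split, with Per1 and Per2 on one side of the activators and Per3, both Cry genes, both REV-ERB genes and Dbp on the other. The widest of the 31 ratios compared was between paralogs. Per3 over Per2 was 1.97 in replicate 2 and 0.829 in replicate 1 in TPM, so that Per3 exceeded Per2 in one library and was below it in the other. In counts the ratio differed 2.38-fold (difference of the log2 count ratios 1.25, interval 1.08 to 1.42). Among the other output pairs, Nr1d1 over Nr1d2 was 1.14 in replicate 2 and 1.46 in replicate 1 in TPM. The difference of its log2 count ratios was -0.20 (interval -0.35 to -0.05), while its log2 TPM ratios, 0.184 and 0.548, lay further apart. Dbp over Nr1d1 was 1.06 and 0.933 in TPM, with a difference of the log2 count ratios of 0.26 (interval 0.07 to 0.44).

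**Figure D3:**
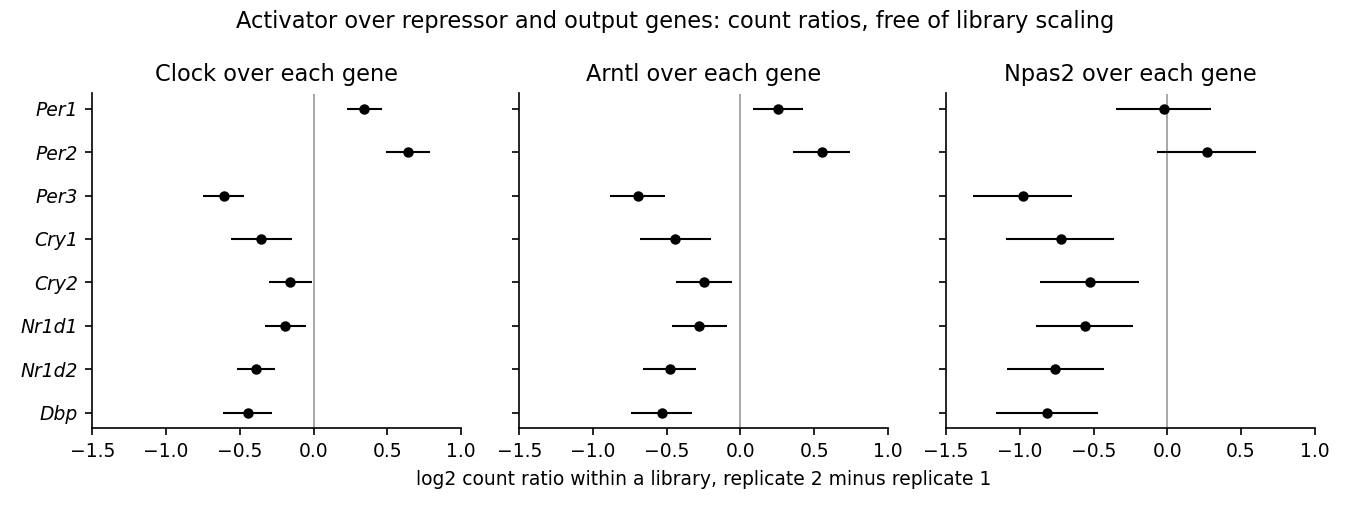
Difference between the libraries in the log2 count ratio of Clock, Arntl and Npas2 over each of 8 repressor and output genes, replicate 2 minus replicate 1, with 95% intervals of counting error. For Clock and Arntl the ratios over Per1 and Per2 lie right of 0 and the other 6 left of it.

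Beyond the core, 26 other genes of the clock pathway were all expressed highly enough to be tested. Of these, 7 were called higher in replicate 2, 10 lower and 9 neither, beside the 28.9% and 24.3% of all genes. Their median log2 difference was -0.03. With spike-in scaling 3 were called higher and 15 lower, against 15.7% and 52.8% of all genes. With total-count scaling the calls were 3 and 16, against 14.0% and 58.3% of all genes. Npas2, a paralog of Clock that can take its place beside ARNTL, was low, with 1.23 TPM in replicate 2 and 2.20 TPM in replicate 1. It was called lower (130 and 261 counts, log2 -0.51, interval -0.83 to -0.20, adjusted p = 2.466e-03 in the exact test). Npas2 over Clock was 0.136 in replicate 2 and 0.163 in replicate 1 in TPM. Its ratios over 6 of the 8 repressor and output genes were lower in replicate 2, and those over Per1 and Per2 had intervals that held 0. Of all other genes tested, 62.2% had an Npas2 ratio that was lower by the same measure and 2.01% one that was higher.

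Rora and Rorb encode activators at the element that the REV-ERBs occupy. Rora, at 13.02 TPM in replicate 2 and 20.23 in replicate 1, was called lower (log2 -0.15, adjusted p = 1.429e-04 in the exact test). Rorb had 14 counts in replicate 2 and 28 in replicate 1 and was not called. Tef and Hlf, the close relatives of Dbp that act on the D-box, were both called higher with Dbp: Tef by 0.30 on the log2 scale (21.7 TPM in replicate 2 and 24.2 TPM in replicate 1) and Hlf by 0.76 (9.70 and 7.45 TPM). Their direction depends on the scaling for Tef, which was at -0.04 with total counts, and not for Hlf, at 0.41. Nfil3, a repressor at the D-box, was called lower (7.30 TPM in replicate 2 and 11.8 TPM in replicate 1, log2 -0.27, adjusted p = 3.598e-03 in the exact test).

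Bhlhe40, an E-box repressor, was called lower by 0.15 (19.8 TPM in replicate 2 and 28.7 TPM in replicate 1), while its paralog Bhlhe41, at 1.21 and 1.28 TPM, was not called. Ciart, a further repressor of CLOCK and ARNTL, had 29 and 33 counts, too few for a narrow interval (log2 0.31, interval -0.46 to 1.07). Genes called higher by at least 1.5-fold numbered 3 and included Hlf and Ppargc1a, which encodes a coactivator of the ROR proteins (5.41 TPM in replicate 2 and 4.53 TPM in replicate 1, log2 0.93, adjusted p = 1.509e-31 in the exact test). The only one called lower by that margin was Fbxl21, which encodes a ubiquitin ligase subunit for the CRY proteins, from 39 and 95 counts (log2 -0.78, interval -1.37 to -0.24). Ppargc1a and Hlf are both expressed in liver, and the summed liver markers were 18820 TPM in replicate 2 and 325 TPM in replicate 1. The summed skeletal muscle markers (483 and 23.2 TPM) and fat markers (1524 and 1335 TPM) were higher in replicate 2 as well. The part of RNA from any of these tissues in these calls was not tested.

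The annotated transcripts of a gene can begin at separate starts, and the share of a start differed between the libraries, in both transcript tables, for Per1, Arntl and Clock. Starts at most 500 bases apart were taken as 1 group, a choice made after the values were seen, and the counts are the authors' division of reads among overlapping transcripts. For Per1 the principal group holds Per1-201, which starts at the first window printed above. It took 66.7% of the counts in replicate 2 (95% Wilson interval 64.4 to 68.8) and 47.9% in replicate 1 (46.2 to 49.5). The downstream group of 4 transcripts, which begins 1204 bases further on with the start of the second window, took 15.7% (14.1 to 17.5) in replicate 2 and 33.5% (31.96 to 35.11) in replicate 1. Per1-202, which starts 3731 bases upstream of Per1-201 at a start that no window covers, took 17.7% and 18.6%. The second transcript table, made with another method, gave 14.9% in replicate 2 and 34.1% in replicate 1 for the downstream group, although it divided the reads differently among its members. The short Per1-204 of 496 bases, for example, had 75.2 and 122 expected counts in the first table and none in the second. On the TPM scale, which weights short transcripts up, the downstream group took 40.7% and 49.9% in the first table and 15.2% and 33.8% in the second, so its share was lower in replicate 2 each time while its size depends on the table.

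Arntl showed the same ordering. The first group of starts took 80.1% of the counts in replicate 2 (interval 76.7 to 83.1) and 60.8% in replicate 1 (57.7 to 63.8). Arntl-206, a coding transcript that starts 27158 bases downstream, took 13.7% (11.2 to 16.6) and 29.2% (26.43 to 32.04), and its share was 19.3% and 32.7% in the second table. For Clock, the coding transcript Clock-204, which starts 30780 bases downstream of the first start, took 6.31% (5.34 to 7.44) in replicate 2 and 10.95% (9.92 to 12.1) in replicate 1, and 9.22% and 15.6% in the second table. In these 3 genes the downstream start had the lower share in replicate 2, with intervals that did not overlap and the same direction in the second table. Both tables divide reads of the same libraries. Such differences in share were not counted over all genes, so how common they are is not known. Per3 also had a downstream group with intervals that did not overlap, in the opposite direction. Its noncoding transcript Per3-204, which starts 28520 bases downstream of the first start, took 5.38% (4.27 to 6.77) in replicate 2 and 2.49% (1.77 to 3.49) in replicate 1, from 68 and 32 counts, but the second table gave it 0% in both. In the other 6 genes no group had intervals that did not overlap, and the first group held at least 85.5% of the counts in both libraries. Whether the difference in tissue noted above moves these shares was not tested.

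**Figure D4:**
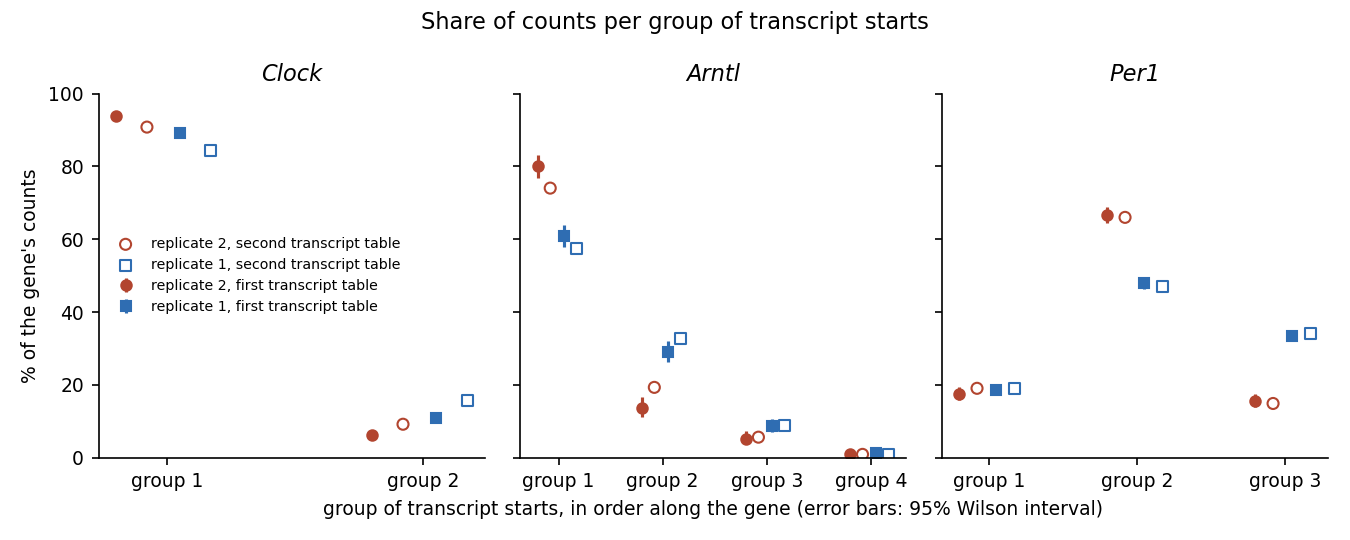
Percent of each gene's counts per group of transcript starts, in order along the gene, for Clock, Arntl and Per1 in replicate 2 (circles) and replicate 1 (squares). Filled symbols with 95% Wilson intervals are the first transcript table and open symbols the second. The downstream groups, group 2 of Clock and Arntl and group 3 of Per1, are lower in replicate 2 in both tables.

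Transcripts that the annotation does not class as protein coding took part of the RNA of most members. They made up 37.4% of Per3 TPM in replicate 2 and 39.3% in replicate 1, and for Clock 20.4% and 18.8%. In the second transcript table the shares were 29.4% and 39.0% for Per3, further apart than in the first, and 17.4% and 17.6% for Clock. For Nr1d2 such transcripts took 30.6% in replicate 2 and 14.8% in replicate 1 in the first table. Most of it was in the retained-intron transcript Nr1d2-202, at 2.89 and 1.12 TPM. The protein-coding Nr1d2-201 had 8.54 TPM in replicate 2, against 10.4 TPM in replicate 1. The second table had the noncoding share of Nr1d2 at 26.04% and 15.5%. On the TMM scale of counts, however, Nr1d2-201 was 0.14 higher in replicate 2 (log2), against 1.79 for Nr1d2-202, so the direction of the coding transcript depends on the scale.

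Some members share exon sequence with a gene on the opposite strand. The kit was directional per the labels, but the sources used here do not say whether counting used strand. Nr1d1 overlaps Thra, the thyroid hormone receptor alpha gene, in 263 of its 3077 exon bases, and Thra was at 28.9 TPM in replicate 2 and 34.0 in replicate 1. Dbp overlaps Sphk2, a sphingosine kinase gene, in 539 of 2993 exon bases, and Sphk2 had 9.64 and 9.29 TPM. Reads from those stretches cannot be told apart without strand. The partners of Cry2 and Arntl were noncoding and had at most 1 count. Expected counts of a fractional size arise where reads are divided between genes. They were whole to 2 decimals for 9 of the 10 members, and Nr1d2 was the exception with 1451.7 and 1722.77 expected counts. Those of Thra (1895 in replicate 2 and 2304 in replicate 1) and Sphk2 (961 and 984) were whole as well. How reads of the shared stretches were assigned was not tested.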

How the data were processed

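Total RNA-seq of female adrenal gland was used, 1 group of 2 libraries, prepared with a directional kit from rRNA-reduced RNA (input 300 ng), per the labels. Per the text deposited with each sample, the build was mm10 with GENCODE M21. The gene table and one transcript table came from alignment to the transcriptome, and another transcript table, here the second, was computed from reads with an index. Which tools were used is not given in the sources used here. Per the file headers, the deposited tables hold the authors' expected counts (estimated counts in the second table), TPM and, in the first transcript table, each transcript's percent of its gene.

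Expected counts were rounded to whole numbers. Of 55536 genes, 16155 nuclear genes passed a minimum mean count of 20 and were compared after TMM scaling (edgeR 4.0.16 in R 4.3.3) with an exact conditional binomial test in SciPy 1.17.1 (two-sided, doubled smaller tail, Benjamini-Hochberg over all genes tested). The call was an adjusted p under 0.05. Log2 differences used a prior count of 0.5 and Clopper-Pearson 95% intervals. Intervals of ratios are conditional exact intervals of the odds ratio, and shares have Wilson intervals. All intervals cover counting error only, and where nothing was counted up to 3 counts are possible, 8.89e-06% of replicate 2 or 8.01e-06% of replicate 1. The test was also run on simulated counts drawn with counting error only. That run cannot show how the test does where libraries differ by more than counting error. Alternatives were DESeq2 1.42.0 size factors, spike-in, total-count and adrenal cortex scaling, the second table, other count minimums and prior counts, TPM differences and rescaled TPM. Named were all members, a fixed part of the 26 other clock genes and those called by at least 1.5-fold, except 1 gene that is not reported here. The members and lists were chosen with earlier results of these data known. The cortex scaling, the grouping of starts and the transcripts named were chosen after values were seen.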

Additional observations from a re-analysis of the deposited data

How the results depend on the processing

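No paired analysis was possible because the libraries form 1 group. DESeq2 size factors and the prior count changed no call of a core clock gene, and Cry1 was called higher as well in the second transcript table and with a minimum count of 100. With spike-in and total-count scaling the core genes called higher numbered 1 and those at least 1.5-fold lower 2, with medians of -0.25 and -0.31, and Cry2 and Nr1d1 were then called lower. The log2(TPM + 1) and log2(TPM + 0.1) differences, which are not rescaled, gave medians of -0.37 and -0.39, and Dbp at -0.17 on both. Dbp was at -0.04 with total counts, and Nr1d2 at -0.032 with spike-ins and -0.10 with total counts. Cortex scaling gave 9 core genes higher, 8 of them by at least 1.5-fold (74.5% of all genes), and 0 lower at either margin, with a median of 0.87 and Clock at 0.69, Arntl at 0.61, Per1 at 0.35 and Per2 at 0.057. Of the other clock genes, 3 were higher with spike-ins, 3 with total counts and 24 with cortex scaling. The shares of all genes were 15.7%, 14.0% and 86.7%. With total counts 16 of the other clock genes were lower and with cortex scaling 0, against 58.3% and 1.30% of all genes. At 1.5-fold, 1, 0 and 21 were higher and 3, 5 and 0 lower with spike-in, total-count and cortex scaling, while 9.33%, 8.65% and 74.5% of all genes were higher and 18.2%, 23.1% and 1.01% lower. A minimum count of 100 left 0 lower, since Fbxl21 was then not tested. Their medians were -0.30, -0.37 and 0.81. The form CANNTG lay in 7 member windows, against 2 with the exact E-box. All 31 ratios from the second table stayed within the intervals of the main ones. These counts compare 2 libraries only, and the depth limits genes such as Rorb and Ciart.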
